A study of Homo sapiens with 29 samples.

Results

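The genes of the proteasome were followed in IMR90 ER:RAS, a human lung fibroblast line in which a retroviral vector carries the estrogen receptor fused to oncogenic RAS. Members were all genes whose symbol starts with PSMA to PSMG and ends in a number, 48 of the 28266 symbols in the deposited count table. The libraries formed 3 groups of 6, all labelled as this line and as day 7. DMSO_siNT cells received the solvent DMSO and non-targeting siRNA. 4OHT_siNT cells received 4-hydroxytamoxifen (4OHT), which switches the fusion on and induces senescence, and non-targeting siRNA. 4OHT_siSMARCA4 cells received 4OHT and siRNA against SMARCA4, the ATPase of the SWI/SNF chromatin remodelling complex. Each arm held siRNAs numbered 2 and 4. Because RNA was measured in bulk cultures, fewer cells of a type and less RNA per cell cannot be told apart.

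The proteasome degrades proteins that carry a ubiquitin chain. Its 20S core is a barrel of 7 kinds of alpha subunit (PSMA1 to PSMA7) and 7 kinds of beta subunit (PSMB1 to PSMB7), of which PSMB5, PSMB6 and PSMB7 cut the substrate. Under interferon many cells replace these with the inducible subunits PSMB8, PSMB9 and PSMB10, which gives the immunoproteasome and changes the peptides offered to MHC class I. The 19S regulatory particle recognises, unfolds and feeds the substrate through 6 ATPases (PSMC1 to PSMC6) and 11 non-ATPase subunits of the PSMD series. The activators PSME1 and PSME2 (PA28 alpha and beta), PSME3 and PSME4 can cap the barrel instead, PSMF1 inhibits it, and PSMG1 to PSMG4 chaperone its assembly, as PSMD5, PSMD9 and PSMD10 do for the 19S base. In fibroblasts the constitutive form is the usual one.

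Total counts per library were 9657309 to 18039313. SMARCA4 was at 275 to 330 CPM (counts-per-million after TMM scaling, as for all levels) in 4OHT_siNT and at 70.4 to 141 CPM in 4OHT_siSMARCA4. The sum of 8 fibroblast markers was 10569 to 38954 CPM and fell within 14820 to 38954 CPM in DMSO_siNT, 19300 to 31022 CPM in 4OHT_siNT and 10569 to 18500 CPM in 4OHT_siSMARCA4. The lowest DMSO_siNT sum was that of library 4-2V. Its COL1A1 was at 3155 CPM, against 10231 to 14727 CPM in the other DMSO_siNT libraries. The 6 leukocyte markers summed to 0.0713 to 1.08 CPM, with 4 of the 6 at no more than 3 counts in any library of a group. The 4 epithelial markers summed to 33.0 to 91.8 CPM and the 3 endothelial markers to 1.21 to 5.69 CPM. The part of these markers in the results was not tested.

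One library stood apart from its group. In DMSO_siNT 4-2V, ESR1, which counts the receptor part of the fusion, was at 29.5 CPM against 1034 to 1316 CPM in the other 5 DMSO_siNT libraries. HRAS was at 436 CPM there and at 2165 to 2852 CPM in the other 5. The summed level of the proteasome genes was 10890 CPM in this library, against 5459 to 6980 CPM in the other 5, 6433 to 7148 CPM in 4OHT_siNT and 6802 to 8082 CPM in 4OHT_siSMARCA4. It was the highest of the 6 DMSO_siNT libraries for 31 of the 46 members tested and the lowest for 10. The 20S core genes were 2.27 times the mean of the other 5 libraries at the median, the immunoproteasome genes 4.87 times and the 19S genes 1.05 times. Whether the library labelled DMSO_siNT 4-2V came from the same cells as the others was not tested. Most results are given with and without it, and a value given only once is from all libraries unless stated otherwise.

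Set names differed between the groups. The labels name each sample by a number from 1 to 3 and V or VM, whose meaning they do not give. All 6 4OHT_siNT libraries were VM, DMSO_siNT had 3 V and 3 VM, and 4OHT_siSMARCA4 had 3 V, 2 VM and 1 further library. The column name of that library carries the set 1VM, which no sample title of its siRNA has, so it is called the unlabelled library here. With no V library in 4OHT_siNT, its difference from either other group cannot be told apart from that of V and VM where V libraries enter, and values within VM sets are given beside the main results. Knockdown and growing cells, with 3 V libraries each, were not compared within V sets.

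Of the 48 members, 46 passed the filter on low counts. PSMA8, the alpha subunit of the testis, and PSMB11, the beta subunit of the thymus, had no more than 1 count in any library. Per kilobase of transcript, PSMD2 was the most abundant member of 4OHT_siNT at 354 ± 29.2 CPM per kb (SD, n = 6), followed by PSMB4 at 277 ± 17.5 CPM per kb (SD, n = 6), PSMB5 at 268 ± 11.9 (SD, n = 6) and PSMA7 at 263 ± 16.9 (SD, n = 6), which differed from each other by less than their spread. PSMB9 was the least abundant member tested, at 1.72 ± 0.358 CPM per kb (SD, n = 6). The 3 inducible subunits lay far below their constitutive partners on this scale. In 4OHT_siNT PSMB8 was at 21.2 ± 2.21 CPM per kb (SD, n = 6) against 268 for PSMB5, and PSMB10 at 30.3 ± 2.46 (SD, n = 6) against 223 for PSMB7. The canonical exons of 9 of the 48 members overlap exons of another protein-coding gene in the annotation. Most of it lies in read-through transcripts on the same strand as PSMA1, PSMA2, PSMA6, PSMB10 or PSMD9, or in NRDE2 on the strand opposite PSMC1. How the counting treated such reads, and reads shared with processed pseudogenes, is not given, and these values are less certain.

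PSMB9, which replaces PSMB6 in the immunoproteasome, was the member that fell most in senescent cells. PSMB9 was at 11.8, 7.49, 3.00, 18.8, 4.92 and 4.66 CPM in DMSO_siNT, with the fourth value from 4-2V. These values split by set, with 11.8, 7.49 and 18.8 CPM in V and 3.00, 4.92 and 4.66 CPM in VM libraries. In 4OHT_siNT, where all libraries were VM, PSMB9 was at 1.24, 1.80, 1.85, 1.71, 1.57 and 2.34 CPM. In 4OHT_siSMARCA4 it was at 1.73, 2.07, 2.36, 1.56, 2.06 and 1.21 CPM. All growing libraries lay above all senescent ones, whatever the siRNA. Behind these levels stood 42 to 166 counts per library in DMSO_siNT and 15 to 42 in senescent cells.

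PSMB9 fell by 2.25 on the log2 scale in 4OHT_siNT relative to DMSO_siNT (SE 0.36, adjusted p = 2.8e-05, edgeR). It fell by 1.86 without 4-2V (adjusted p = 9.1e-06) and by 1.26 within VM sets (adjusted p = 0.00039). After SMARCA4 knockdown it was 0.08 above 4OHT_siNT (SE 0.37, adjusted p = 0.93).

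PSMB8, which replaces PSMB5, behaved differently once the divergent library was set aside. It was at 33.6, 26.4, 21.0, 164, 25.1 and 31.2 CPM in DMSO_siNT, the 164 CPM being 4-2V. It was at 20.2 to 27.1 CPM in 4OHT_siNT (median 23.8) and at 19.02 to 27.3 CPM in 4OHT_siSMARCA4 (median 20.1), ranges that overlap those of the other 5 growing libraries. PSMB8 fell by 1.07 in 4OHT_siNT relative to DMSO_siNT (SE 0.39, adjusted p = 0.027), but the difference without 4-2V was -0.20 (SE 0.12, adjusted p = 0.17) and within VM sets -0.12 (adjusted p = 0.47). The call was also missed without 4OHT_siNT 2-1VM (adjusted p = 0.054). PSMB10, which replaces PSMB7, was at 23.0 to 33.4 CPM in 5 growing libraries, 132 CPM in 4-2V, 26.2 to 32.6 CPM in 4OHT_siNT and 26.5 to 39.7 CPM in 4OHT_siSMARCA4. Its difference between 4OHT_siNT and DMSO_siNT was -0.58 (SE 0.34, adjusted p = 0.16) with all libraries and 0.13 (SE 0.11, adjusted p = 0.34) without 4-2V.

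**Figure D1:**
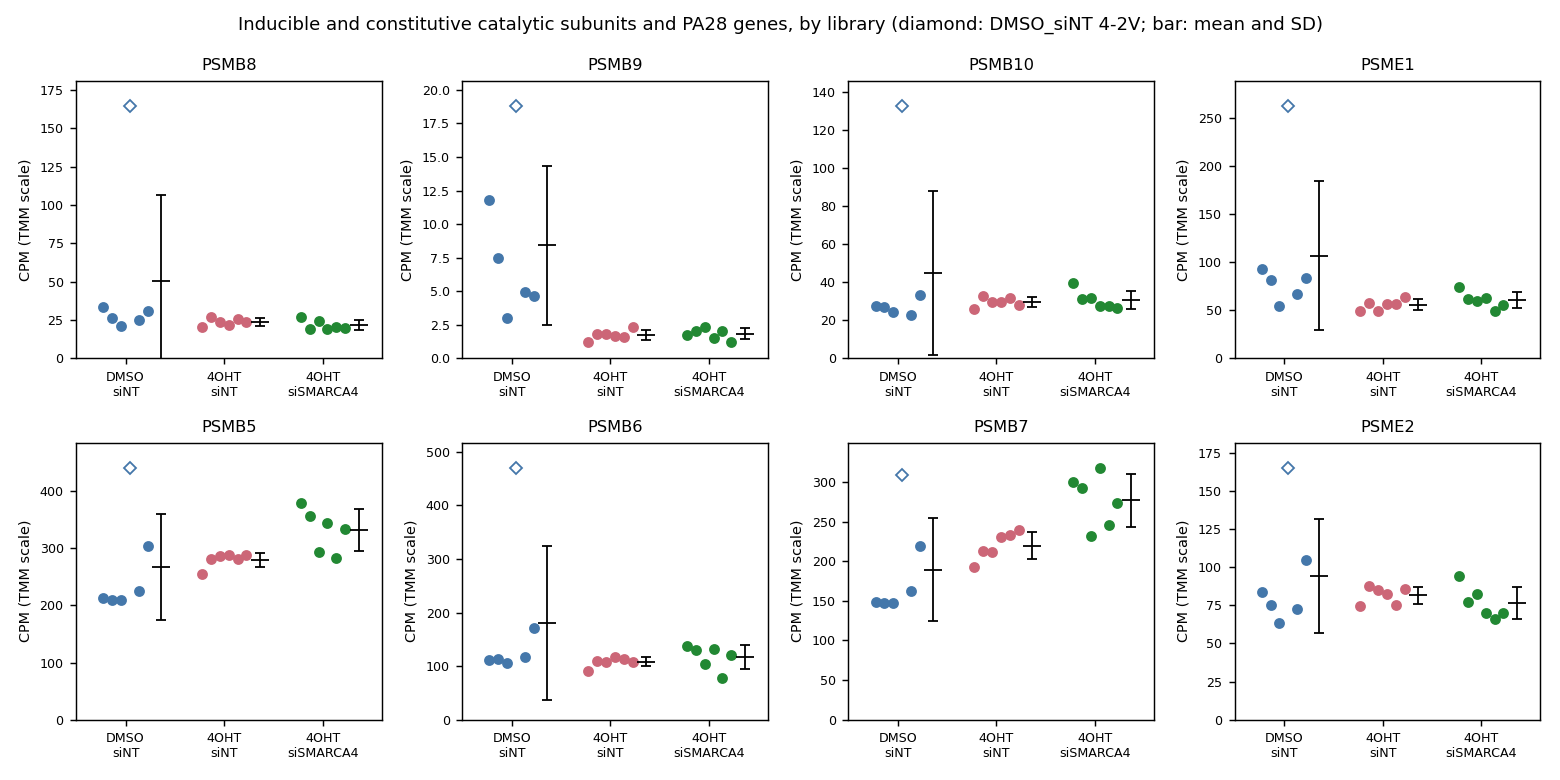
CPM on the TMM scale (y axis) of the inducible subunits PSMB8, PSMB9 and PSMB10, the constitutive subunits PSMB5, PSMB6 and PSMB7 and the activator genes PSME1 and PSME2 in each library of the 3 groups (x axis), with bars for the mean and SD over 6 libraries. The open diamond, DMSO_siNT 4-2V, is the highest growing library in all 8 panels, and PSMB9 is the only one of the 8 genes with all growing libraries above all senescent ones.

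The region upstream of the genes whose levels the comparison turns on is shown from RefSeq (GRCh38.p14), as far as it lies outside annotated exons. RefSeq promoters of 250 bases before and 50 after the start were found for 42 of the 48 members and searched on both strands. PSMB9 lies in the MHC class II region (chromosome 6, 32844136 to 32859851, plus strand, GENCODE 44), and its bases at chr6:32853942-32854147 on the plus strand hold 1 match to TGACNNNGC, the core of the antioxidant response element bound by NRF factors, in capitals on the opposite strand:
PSMB9: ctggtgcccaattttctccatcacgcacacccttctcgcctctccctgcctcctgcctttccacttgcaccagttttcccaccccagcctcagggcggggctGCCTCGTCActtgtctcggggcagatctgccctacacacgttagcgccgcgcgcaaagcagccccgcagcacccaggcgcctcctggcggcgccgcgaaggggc
PSMB10 lies on chromosome 16 (67934506 to 67936864, minus strand), and its bases at chr16:67936865-67937100 on the minus strand end inside a match to GAAANNGAA, the core of the interferon-stimulated response element, whose first 7 letters are in capitals:
PSMB10: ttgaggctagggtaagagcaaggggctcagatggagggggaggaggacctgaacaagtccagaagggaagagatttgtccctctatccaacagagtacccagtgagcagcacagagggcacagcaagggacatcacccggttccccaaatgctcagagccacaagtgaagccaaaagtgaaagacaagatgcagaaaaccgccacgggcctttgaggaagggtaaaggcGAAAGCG

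The interferon element core was found in 8 of 42 members (19.05%), namely PSMA4, PSMB4, PSMB8, PSMB10, PSMC2, PSME1, PSME2 and PSMG4, against 9.86% of 27305 promoters of the table. The antioxidant element core was found in 15 of 42 members (35.7%) against 16.1% of all promoters. TTCNNNGAA, the gamma-activated site, was found in 8 of 42 (19.05%) against 9.38%, and CCAAT in 20 of 42 (47.6%) against 39.7%. Of the inducible subunits, PSMB8 and PSMB10 held the interferon core and PSMB9 the antioxidant core. These matches describe letters in a window and are not known to be bound in these cells.

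The activators PSME1 and PSME2, which interferon also raises in many cells, were compared next. PSME1 was at 93.0, 81.4, 54.3, 262, 66.8 and 83.7 CPM in DMSO_siNT, at 48.9 to 64.4 CPM in 4OHT_siNT (median 56.7) and at 49.7 to 74.2 CPM in 4OHT_siSMARCA4 (median 60.6). The ranges overlap, with 1 growing library inside that of 4OHT_siNT. PSME1 fell by 0.94 in 4OHT_siNT relative to DMSO_siNT (SE 0.27, adjusted p = 0.0076) and by 0.44 without 4-2V (adjusted p = 0.0040), and was at -0.30 within VM sets (adjusted p = 0.060). PSME2, its partner in the ring, was at 63.5 to 165 CPM in DMSO_siNT, 74.3 to 87.3 CPM in 4OHT_siNT and 66.0 to 94.0 CPM in 4OHT_siSMARCA4, and differed by -0.20 (SE 0.18, adjusted p = 0.35) between 4OHT_siNT and DMSO_siNT. The nuclear activator PSME3 rose by 0.41 (adjusted p = 0.033) and PSME4 (PA200) by 0.65 (adjusted p = 0.00017), and both also rose without 4-2V, by 0.27 and 0.61.

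Each inducible subunit was then set against the constitutive subunit it replaces, as the log2 ratio of their counts within a library, which no scaling changes. Raw counts are not per length, so the ratio compares groups and not the 2 genes. PSMB9 made up 9.64%, 6.22%, 2.75%, 3.84%, 4.01% and 2.66% of PSMB9 and PSMB6 counts in DMSO_siNT. It made up 1.33% to 2.11% in 4OHT_siNT and 0.993% to 2.55% in 4OHT_siSMARCA4. No growing library fell within either senescent range, and 4-2V lay inside the growing range here.

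In 4OHT_siNT relative to DMSO_siNT, the mean log2 ratio differed by -1.52 for PSMB9 to PSMB6 and by -0.75 for PSMB8 to PSMB5 (two-sided exact permutation test, adjusted p = 0.0039 for both over 9 ratio tests, from the smallest p that 6 against 6 can give, 0.0022). For PSMB10 to PSMB7 the difference was -0.52 (exact permutation, adjusted p = 0.0065). Without 4-2V the differences were -1.56, -0.48 and -0.29 (exact permutation, adjusted p = 0.0065, 0.0065 and 0.016). For the PSMB8 and PSMB10 pairs the denominator moved as well, since without 4-2V PSMB5 rose by 0.27 and PSMB7 by 0.42 in the gene fit (adjusted p = 0.026 and 0.0028). Within VM sets the 3 differences were -1.003, -0.31 and -0.19 (exact permutation, adjusted p = 0.054, 0.054 and 0.11), where 3 against 6 libraries allow no unadjusted p under 0.012.

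After SMARCA4 knockdown, the PSMB8 to PSMB5 ratio was lower than in 4OHT_siNT, with a difference of -0.37 (exact permutation, adjusted p = 0.019), and PSMB10 to PSMB7 differed by -0.29 (exact permutation, adjusted p = 0.037). The PSMB9 to PSMB6 ratio differed by -0.04 (exact permutation, adjusted p = 0.88). For the PSMB8 and PSMB10 pairs the denominator moved here as well. From 4OHT_siNT to 4OHT_siSMARCA4 mean CPM went from 280 to 332 for PSMB5 and from 220 to 277 for PSMB7. It went from 23.8 to 21.8 for PSMB8 and from 29.6 to 30.7 for PSMB10. Leaving out single libraries took the PSMB10 difference to adjusted p between 0.0609 and 0.0779 in 8 of 12 cases (4OHT_siNT 2-1VM, 2-2VM, 2-3VM and 4-2VM, and 4OHT_siSMARCA4 2-3VM, 4-2VM, 4-3V and the unlabelled library) and the PSMB8 difference to 0.0501 without 4OHT_siNT 2-2VM. Relative to DMSO_siNT the knockdown libraries differed by -1.13, -1.56 and -0.81 for the PSMB8, PSMB9 and PSMB10 pairs (exact permutation, adjusted p = 0.0039 each). Without 4-2V these differences were -0.85, -1.60 and -0.58 (exact permutation, adjusted p = 0.0065, 0.0078 and 0.0078). In DMSO_siNT without 4-2V mean CPM was 232 for PSMB5 and 165 for PSMB7, below knockdown. It was 27.5 for PSMB8 and 27.2 for PSMB10. The comparisons share the 4OHT_siNT or the DMSO_siNT libraries.

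**Figure D2:**
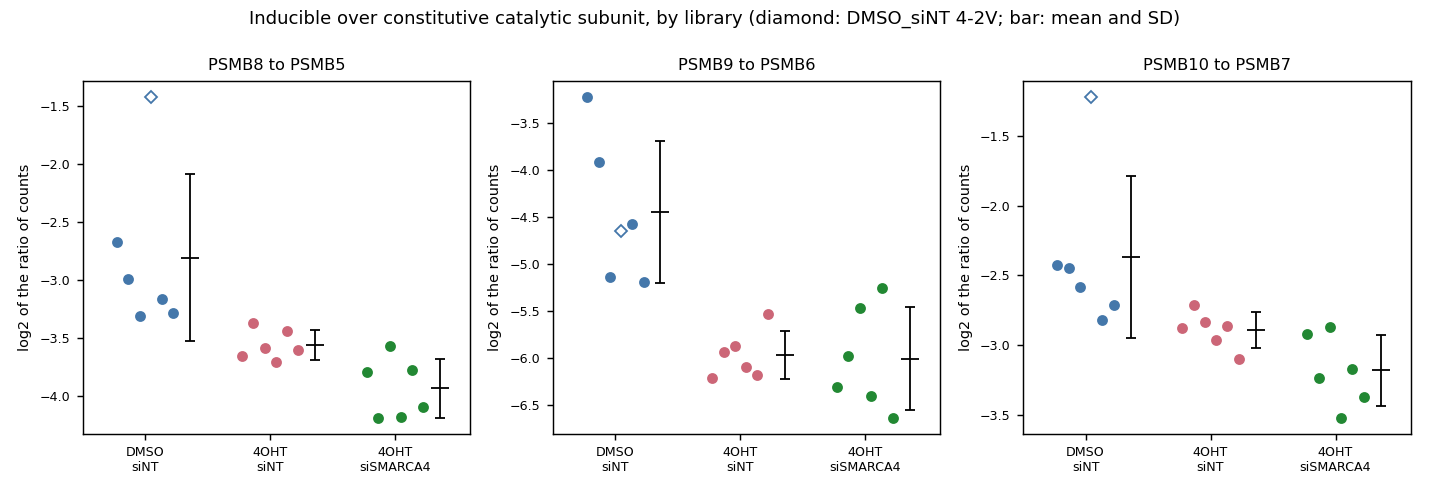
log2 ratio of counts (y axis) of each inducible subunit to the constitutive subunit it replaces, by library in the 3 groups (x axis), with bars for the mean and SD over 6 libraries and an open diamond for DMSO_siNT 4-2V. The mean PSMB9 to PSMB6 ratio is -4.45 in DMSO_siNT, -5.98 in 4OHT_siNT and -6.01 in 4OHT_siSMARCA4, while the PSMB8 to PSMB5 means step down from -2.81 to -3.56 and -3.93.

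Genes of the 19S regulatory particle were those that rose most in senescent cells, above all PSMC4, PSMD2 and PSMD8. The 17 ATPase and non-ATPase genes summed to 2778 ± 223 CPM (SD, n = 5) in DMSO_siNT without 4-2V, where 4-2V had 3694 CPM, to 3494 ± 167 CPM (SD, n = 6) in 4OHT_siNT and to 3557 ± 234 CPM (SD, n = 6) in 4OHT_siSMARCA4. In 4OHT_siNT relative to DMSO_siNT, 8 of the 17 rose and 2 fell with all libraries, where 23.9% of all genes tested rose and 28.9% fell. Without 4-2V 8 rose and 0 fell, against 27.9% and 30.3% of all genes. The 2 that fell with all libraries, PSMD1 and PSMD7, were highest in 4-2V. The median log2 difference was 0.08 with and 0.14 without that library, beside -0.05 and -0.02 over all genes tested.

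PSMC4, one of the ATPases of the ring that unfolds substrates, rose most. It was at 123, 120, 128, 60.2, 124 and 137 CPM in DMSO_siNT and at 205, 208, 210, 230, 236 and 228 CPM in 4OHT_siNT. In 4OHT_siSMARCA4 it was at 250, 235, 227, 222, 233 and 227 CPM. All senescent libraries were above all growing ones, and the lowest growing value was that of 4-2V. The log2 difference between 4OHT_siNT and DMSO_siNT was 0.93 (SE 0.14, adjusted p = 1.6e-05), or 0.80 without 4-2V and 0.76 within VM sets (adjusted p = 3.9e-09 and 2.8e-06). The other 5 ATPase genes were not called in this comparison, with PSMC6 at -0.31 and PSMC2, PSMC1, PSMC3 and PSMC5 closer to 0.

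PSMC4 lies on chromosome 19 (39971165 to 39981764, plus strand). The bases before its start, chr19:39970915-39971164 on the plus strand, hold 1 match to TTCNNNGAA, in capitals:
PSMC4: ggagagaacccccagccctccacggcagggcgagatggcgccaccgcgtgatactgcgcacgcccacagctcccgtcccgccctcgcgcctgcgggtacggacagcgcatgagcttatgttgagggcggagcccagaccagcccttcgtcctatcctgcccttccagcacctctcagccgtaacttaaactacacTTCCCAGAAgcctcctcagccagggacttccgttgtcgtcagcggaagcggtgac

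PSMD2, a scaffold subunit of the 19S base that binds ubiquitin-like domains, was at 557, 608, 685, 400, 686 and 686 CPM in DMSO_siNT and at 938 to 1131 CPM in 4OHT_siNT (median 1019). It was at 840 to 983 CPM in 4OHT_siSMARCA4 (median 882). Both senescent groups lay wholly above the growing one. PSMD2 rose by 0.77 in 4OHT_siNT (SE 0.12, adjusted p = 2.4e-05), by 0.68 without 4-2V and by 0.59 within VM sets.

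PSMD8, a lid subunit, was at 180, 177, 191, 135, 195 and 226 CPM in DMSO_siNT, 277 to 331 CPM in 4OHT_siNT (median 297) and 267 to 321 CPM in 4OHT_siSMARCA4 (median 294). Its groups did not overlap either. It rose by 0.71 (SE 0.10, adjusted p = 1.2e-05), by 0.64 without 4-2V and by 0.56 within VM sets. PSMD14, the deubiquitinase of the lid, rose by 0.48 (adjusted p = 0.0011), PSMD3 by 0.58 (adjusted p = 0.018), and PSMD11, PSMD12 and PSMD13 rose by smaller amounts. The growing library 4-2V was lowest for PSMD14, at 69.2 CPM against 103 to 125 CPM in the others. It was also lowest for PSMD3, at 57.1 against 170 to 196 CPM. 4OHT_siNT had PSMD14 at 137 to 156 and PSMD3 at 217 to 289 CPM. Within VM sets PSMD14 rose by 0.36 (edgeR, adjusted p = 0.0026).

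PSMD1, the other large scaffold of the base, was called lower with DMSO_siNT 4-2V included. It was at 227, 206, 199, 1267, 233 and 263 CPM in DMSO_siNT, the 1267 CPM being 4-2V, and at 194 to 227 CPM in 4OHT_siNT (median 202). Apart from 4-2V the groups overlap. It fell by 0.96 with all libraries (SE 0.36, adjusted p = 0.032) and differed by -0.14 without 4-2V (adjusted p = 0.14). Leaving out 4OHT_siNT 2-1VM, 2-2VM, 2-3VM, 4-1VM or 4-2VM also took it past the threshold (adjusted p = 0.052 to 0.058).

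**Figure D3:**
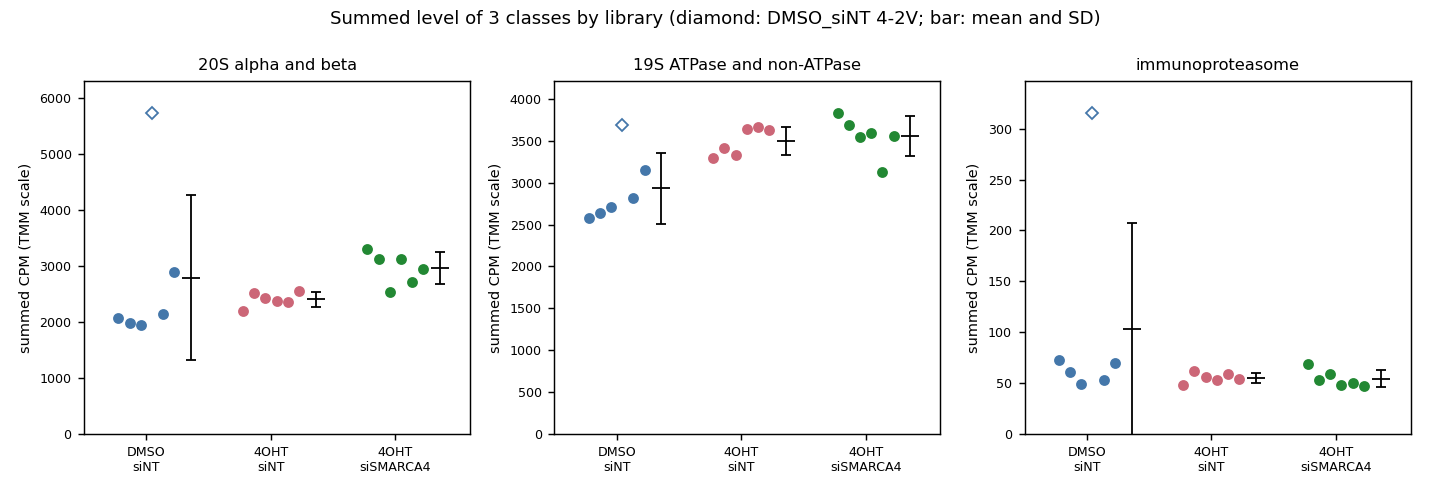
Summed CPM on the TMM scale (y axis) of the 14 constitutive 20S genes, the 17 genes of the 19S regulatory particle and the 3 immunoproteasome genes in each library of the 3 groups (x axis), with bars for the mean and SD over 6 libraries. DMSO_siNT 4-2V (open diamond) reaches 5725 CPM for the 20S core and 315 CPM for the immunoproteasome, where the other 5 growing libraries lie at 1942 to 2888 CPM and 48.6 to 73.0 CPM.

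The direction of the 20S core in senescence depended on 4-2V, with 4 of 14 differences positive with all libraries and 10 without that library. The 14 core genes summed to 2203 ± 391 CPM (SD, n = 5) in DMSO_siNT without 4-2V and to 2400 ± 128 CPM (SD, n = 6) in 4OHT_siNT, ranges that overlap. With all libraries 1 of 14 rose (PSMA6) and 3 fell (PSMA1, PSMB2 and PSMB6), with a median of -0.31. Without 4-2V, 4 rose (PSMA5, PSMA6, PSMB5 and PSMB7) and only PSMB2 fell, with a median of 0.14. The 19S particle also had a median of 0.14 there. Of its 17 differences 11 were positive with all libraries and 10 without 4-2V. The shares of all genes tested were 23.9% higher and 28.9% lower with 4-2V and 27.9% and 30.3% without it, so the core's counts lay near or below them. PSMA6 and PSMB2 were thus called in the same direction in both fits. The catalytic subunit PSMB6 fell by 0.74 with all libraries (SE 0.30, adjusted p = 0.044), against -0.18 without 4-2V (adjusted p = 0.26). That call was lost in 13 of the 18 fits that left out 1 library (adjusted p = 0.051 to 0.26), and the PSMA6 rise in 8 of 18 (adjusted p = 0.055 to 0.097). It was at 106 to 170 CPM in 5 growing libraries, 470 CPM in 4-2V and 91.9 to 117 CPM in 4OHT_siNT.

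Over all members, 11 of 46 were called higher in 4OHT_siNT than in DMSO_siNT and 10 lower, where 23.9% and 28.9% of all genes tested were. Without 4-2V the counts were 14 and 5, against 27.9% and 30.3% of all genes. The counts of higher members were close to those shares of all genes in both fits. The count of lower members was close to its share with 4-2V and below it without. Within VM sets 12 members were called higher and 5 lower, against 25.6% and 27.9% of all genes. The lower count was also 4 without 4OHT_siNT 2-1VM, 6 without 2-2VM, and 5 without 4-1VM or 4-2VM, where 26.6% to 27% of all genes were lower. Of the assembly chaperones, PSMG2 fell by 0.50 (adjusted p = 0.0012) and by 0.45 without 4-2V, and PSMG1 fell by 0.50 (adjusted p = 0.044) with all libraries only. The inhibitor PSMF1 differed by 0.27 (adjusted p = 0.23), and none of the 3 chaperones of the 19S base was called with all libraries. Without 4-2V PSMF1 differed by 0.11 and was not called, and 1 of these 3 chaperones was lower.

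**Figure D4:**
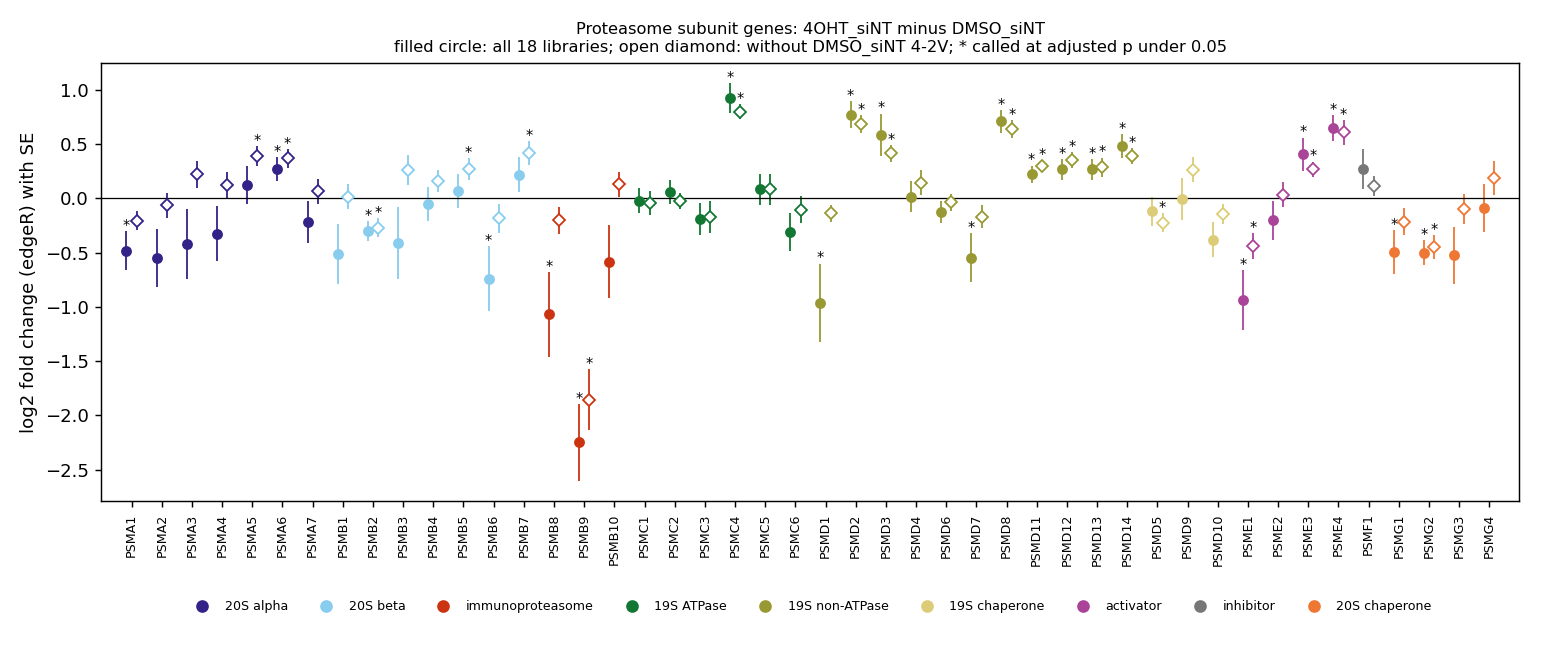
log2 fold change of 4OHT_siNT relative to DMSO_siNT (y axis, edgeR, bars are the SE) for the 46 members tested (x axis), coloured by class. Filled circles use all 18 libraries, open diamonds leave out DMSO_siNT 4-2V and asterisks mark members called, with PSMB9 lowest in both fits (-2.25 and -1.86) and PSMC4 highest (0.93 and 0.80).

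With all libraries, SMARCA4 knockdown in senescent cells raised few members past the threshold, a share close to that of all genes tested. Of 46 members 3 were called higher and 0 lower by edgeR, where 4.99% and 5.65% of all genes tested were. The 3 were PSMA6 and PSMB2 of the 20S core and the assembly chaperone PSMG2. At an unadjusted p under 0.05 there were 10. DESeq2 called 5 higher and 0 lower. Without 4-2V, which belongs to neither group but enters the shared estimate of the spread, 14 members were called higher and 0 lower, against 11.7% and 12.9% of all genes. The share of members called higher then exceeded that of all genes, while no member was called lower in either fit.

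PSMG2, which with PSMG1 starts the assembly of the alpha ring, was at 27.4, 35.6, 33.7, 25.5, 22.8 and 27.7 CPM in 4OHT_siNT and at 37.3, 36.6, 35.1, 37.2, 44.2 and 33.7 CPM in 4OHT_siSMARCA4. The groups overlap, with 2 siNT libraries reaching the lowest knockdown values. PSMG2 rose by 0.38 (SE 0.12, adjusted p = 0.042), back to a level that differed from DMSO_siNT by -0.13 (SE 0.11, adjusted p = 0.38).

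PSMA6, an alpha subunit, was at 143, 169, 164, 148, 153 and 163 CPM in 4OHT_siNT and at 229, 199, 177, 217, 197 and 190 CPM in 4OHT_siSMARCA4, and the groups did not overlap. It rose by 0.36 (SE 0.11, adjusted p = 0.040). PSMB2, a non-catalytic beta subunit, was at 113, 119, 114, 122, 128 and 131 CPM in 4OHT_siNT and at 153, 140, 141, 158, 175 and 135 CPM in 4OHT_siSMARCA4, again without overlap. It rose by 0.31 (SE 0.09, adjusted p = 0.029). These 3 calls sat near the threshold. Among the 18 fits that each left out 1 library, the call was lost in 12 for PSMA6 (adjusted p = 0.053 to 0.10), in 12 for PSMG2 (adjusted p = 0.053 to 0.11) and in 7 for PSMB2 (adjusted p = 0.055 to 0.077). The number of members called higher was then 0 without 4OHT_siNT 2-1VM or 4-1VM or 4OHT_siSMARCA4 2-3V, 4-2VM or 4-3V, and 1 without DMSO_siNT 4-2VM, the other 4 4OHT_siNT libraries, 4OHT_siSMARCA4 2-3VM or the unlabelled library. In those fits 2.89% to 4.47% of all genes were called higher. Within VM sets PSMA6 rose by 0.39 (adjusted p = 0.020), while PSMB2 was at 0.29 (adjusted p = 0.082) and PSMG2 at 0.34 (adjusted p = 0.13), with 2 knockdown libraries. There 8 members were called higher and 1 lower, against 8.76% and 12.2% of all genes. With the unlabelled library, whose column name has a VM set, 15 were higher and 3 lower, against 13.6% and 16.7%.

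PSMB2 lies on chromosome 1 (35599541 to 35641526, minus strand), and of the motifs searched its RefSeq promoter held only CCAAT, on the start itself, so the bases before the start, chr1:35641527-35641776 on the minus strand, carry no capitals:
PSMB2: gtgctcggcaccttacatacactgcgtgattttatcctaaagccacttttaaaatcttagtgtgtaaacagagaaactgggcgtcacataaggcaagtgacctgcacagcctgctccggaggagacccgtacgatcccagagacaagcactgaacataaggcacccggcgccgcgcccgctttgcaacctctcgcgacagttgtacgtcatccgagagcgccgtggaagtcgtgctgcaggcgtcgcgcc

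All 14 constitutive core genes had a positive difference after knockdown, from 0.12 for PSMB6 to 0.48 for PSMA1, with a median of 0.31 beside 0.01 over all genes tested. Only PSMA6 and PSMB2 passed the threshold with all libraries, and 8 of 14 did without 4-2V, PSMA1, PSMA4, PSMA5, PSMB4 and PSMB7 among them. Of all genes 4.99% and 11.7% were called higher in these fits. A fit on the 2 groups alone called 10 of the 14, where 13.3% of all genes were called higher. VM sets called 5, and 9 with the unlabelled library, against 8.76% and 13.6% of all genes. With the set label as a block 12 of 14 differences were positive, with a median of 0.15, and with the set number as a block all 14 were, with a median of 0.20, and neither fit called any core gene. The core summed to 2192 to 2545 CPM in 4OHT_siNT and 2535 to 3306 CPM in 4OHT_siSMARCA4, so the lowest knockdown library lay just inside the siNT range. The siRNA 2 libraries alone called 13 of 14 core genes higher, where 11.8% of all genes were. The siRNA 4 libraries alone had 13 of 14 positive core differences with a median of 0.18 and called 0 members higher, where 2 of 13213 genes were. That fit held DMSO_siNT 4-2V, which enters its shared spread, while the siRNA 2 fit did not. The call counts of the 2 siRNAs therefore cannot be set against each other. No siRNA 4 fit without 4-2V was made, and the next fit held it too. In a fit of both siRNAs no member's difference between them passed the threshold (0 of 46, lowest adjusted p = 0.64, 3 at an unadjusted p under 0.05, edgeR, with 2 of 13659 genes called).

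The other classes had smaller median differences after knockdown than the 0.31 of the 20S core. The 20S assembly chaperones PSMG1 to PSMG4 came close, with a median of 0.26, 3 of 4 positive and 1 called. The inducible subunits had a median difference of 0.05, with PSMB8 at -0.13 (SE 0.39) and PSMB10 at 0.05 (SE 0.34), and 0 of 3 were called with or without 4-2V. Of the 17 genes of the 19S particle 0 were called with all libraries and 5 rose without 4-2V, among them PSMC6 by 0.34 (adjusted p = 0.039) and PSMD14 by 0.33 (adjusted p = 0.0017). In these fits 4.99% and 11.7% of all genes were called higher, and 5.65% and 12.9% lower. The 19S particle had a median of 0.10 with and 0.09 without 4-2V. PSMD14 was at 137 to 156 CPM in 4OHT_siNT and 165 to 197 CPM in 4OHT_siSMARCA4, with no overlap. PSMC4, PSMD2 and PSMD8, which rose most with senescence, differed by 0.08, -0.20 and -0.03 (adjusted p = 0.77, 0.32 and 0.88). The activators were not called, with PSME4 at -0.28 (adjusted p = 0.15).

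**Figure D5:**
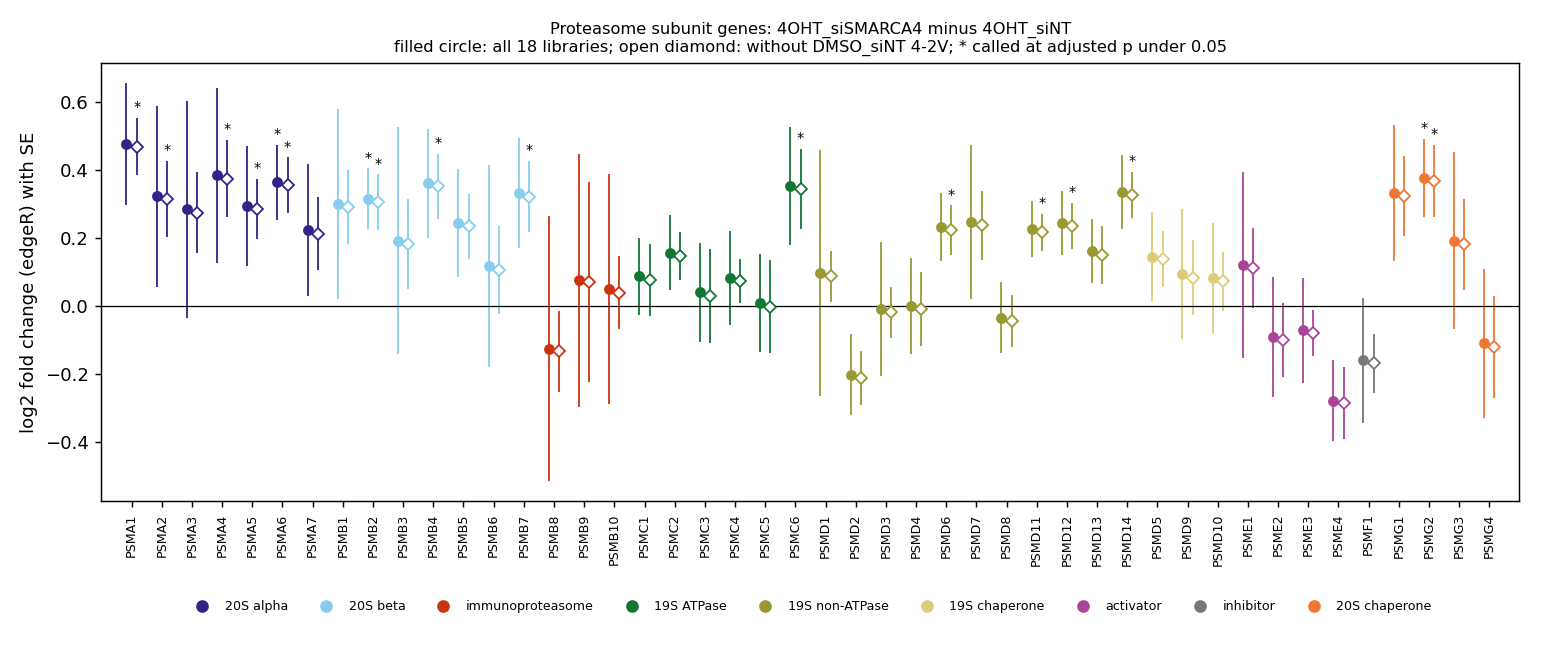
log2 fold change of 4OHT_siSMARCA4 relative to 4OHT_siNT (y axis, edgeR, bars are the SE) for the 46 members tested (x axis), coloured by class, with filled circles for all 18 libraries, open diamonds without DMSO_siNT 4-2V and asterisks for members called. The 14 genes of the 20S core all lie above 0, 2 of them called with all libraries and 8 without DMSO_siNT 4-2V.

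Knockdown cells were last compared with growing cells. Of 46 members 11 were called higher and 3 lower, where 23.3% and 27.3% of all genes tested were, and without 4-2V 23 were called higher and 3 lower, against 28.7% and 30.5%. Without DMSO_siNT 2-2VM 5 were called lower, against 27.4% of all genes. The 3 called lower with all libraries were PSMB9 (-2.17), PSMB8 (-1.19) and PSME1 (-0.82). Without 4-2V their differences were -1.78, -0.34 and -0.33 (adjusted p = 1.3e-05, 0.026 and 0.025), and within VM sets only PSMB9 was called. PSMC4 rose by 1.01 (SE 0.14, adjusted p = 5.3e-06), PSMD14 by 0.82 (SE 0.11, adjusted p = 3.6e-06) and PSMD8 by 0.68 (SE 0.10, adjusted p = 1.9e-05), each without overlap of the groups. The 20S core had 2 of 14 genes called higher with all libraries (PSMA6 and PSMB7) and 11 of 14 without 4-2V, with medians of 0.01 and 0.47. This comparison shares its libraries with both of the others.

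Genes that act with the proteasome gave the setting. Of 13 partner genes, 3 were higher and 3 lower in 4OHT_siNT than in DMSO_siNT, which is close to the 23.9% and 28.9% of all genes tested. Without 4-2V 3 were higher and 2 lower, against 27.9% and 30.3% of all genes. After knockdown 0 were called with all libraries and 4 rose without 4-2V, where 4.99% and 11.7% of all genes rose. In knockdown relative to growing cells 3 were higher and 1 lower, or 7 and 3 without 4-2V, against 23.3% and 27.3% of all genes, or 28.7% and 30.5%. DDI2, the protease that activates NRF1, the transcription factor for proteasome genes, rose by 1.498 in 4OHT_siNT (SE 0.12, adjusted p = 2.2e-09). NFE2L1, which encodes NRF1, was at 0.24 (SE 0.19, adjusted p = 0.30). The ubiquitin receptor ADRM1 rose by 0.60 (adjusted p = 0.00096), and POMP, the maturation factor of the core, rose after knockdown by 0.49 without 4-2V (adjusted p = 0.0032).

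Among 7 genes of MHC class I peptide processing, 3 were higher and 2 lower in 4OHT_siNT, beside the same 23.9% and 28.9% of all genes. The counts were also 3 and 2 without 4-2V, against 27.9% and 30.3% of all genes. After knockdown 0 were called with all libraries and 2 rose without 4-2V (4.99% and 11.7% of all genes), and 3 were higher and 1 lower in knockdown relative to growing cells (23.3% and 27.3%). TAP1, the peptide transporter whose gene neighbours PSMB9, rose by 0.91 (SE 0.12, adjusted p = 3.6e-06) in the comparison in which PSMB9 fell. TAP2 rose by 0.88 and TAPBP by 0.50 (adjusted p = 6.1e-05 and 0.010), while the trimming peptidase ERAP1 fell by 0.76 and B2M by 0.59 (adjusted p = 0.0019 and 0.021). B2M was at 1854 CPM in DMSO_siNT 4-2V and at no more than 894 CPM in the other 5 growing libraries. Without 4-2V its mean was 749 CPM in DMSO_siNT, against 621 CPM in 4OHT_siNT, and the ranges overlap. Of 5 regulators of the inducible subunits, 1 rose in 4OHT_siNT, IRF1 by 0.86 (SE 0.14, adjusted p = 5.4e-05). After knockdown 0 of the 5 were called with all libraries and 1 was lower without 4-2V, against 12.9% of all genes. Of 6 genes for ubiquitin and its first enzymes, 1 was higher and 1 lower in 4OHT_siNT, or 1 and 0 without 4-2V. After knockdown 0 of these 6 were called in either fit. Counts this small were not read as different from the shares of all genes given above. The cause of these patterns was not tested.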

How the data were processed

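Polyadenylated RNA was sequenced as strand-specific single-end libraries. The authors deposited raw counts per gene, 36 columns for 18 libraries on 2 lanes each. Per the labels they used hg38 and STAR 2.7.8a, with DESeq2 1.36.0 for their own tests. The counting program, its annotation and its use of strand are not given in the sources used here. Of 29 labelled samples 17 matched a library and the others were not analysed here. A further library has a column name with the set 1VM, which no title of that siRNA carries, and was used in its group without a set label. Lanes were summed, genes filtered with filterByExpr (minimum count 10, 13136 genes kept) and libraries scaled by TMM. Groups were compared in edgeR 4.0.16 (R 4.3.3) by its quasi-likelihood test, all 18 libraries in 1 fit with no covariate, adjusted by Benjamini-Hochberg over all genes tested and called at 0.05. Ratios were tested by exact permutation, two-sided, adjusted over 9 tests. DESeq2 1.42.0, other scalings and filters, blocks, subsets and leaving out libraries were tried. The 2-group fits without DMSO_siNT 4-2V and those of VM sets plus the unlabelled library were added once the data had been seen. The count fits were tested on simulated data. Labels do not say that libraries of a group came from separate cultures, so p-values measure only the spread between these samples. No 2 libraries of a group agreed within counting noise.

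Members, classes and gene lists were chosen with earlier results of these data known. Named with their values were the inducible subunits and their partners, PSME1, PSME2 and the 3 called members with the largest rise and fall in each comparison. Up to 4 further examples were given per class. Partner, antigen processing, regulator and ubiquitin genes named in the text were chosen after their values were seen.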

Additional observations from a re-analysis of the deposited data

Results flagged for a closer look

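A library whose distance from its nearest neighbour took up most of its group's range was looked for in each group of 6, on log2 CPM, for the members named with library values and for the sum of all members. Chance gives about 1 in 20 groups. In DMSO_siNT, library 4-2V was the highest for PSMB6 (its gap was 0.681 of the range), PSMB8 (0.772), PSMB10 (0.787), PSMD1 (0.85), PSME1 (0.659) and the sum of all 48 members (0.644), and the lowest for PSMC4 (0.84) and PSMD14 (0.681). In 4OHT_siNT, library 2-1VM was the lowest for PSMB5 (0.772) and PSMB6 (0.672). Over all 46 members tested in the 3 groups, 27 of 138 tests passed the limit, 20 of them for 4-2V, where chance gives 6.9. In 4OHT_siSMARCA4 there were 5, in which libraries 4-2V or 4-3V of that group were lowest.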

How the results depend on the processing

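The counts of called members depended on the processing, as did the shares of all genes called (in brackets), and the cause was not tested. For 4OHT_siNT minus DMSO_siNT the main fit gave 11 higher (23.9%) and 10 lower (28.9%). Upper-quartile scaling gave 6 higher (20.3%), and counting all genes with at least 1 count 6 lower (17.9%). The set label as a replicate block gave 4 higher (15.2%) and 1 lower (17.5%), and the set number as a replicate block 4 lower (24.7%). The 2 groups alone gave 7 (22.2%) and 4 (25.7%), and those without DMSO_siNT 4-2V 6 lower (31%). VM sets gave 5 lower (27.9%), and VM sets with the unlabelled library 6 lower (28.6%). With siRNA 2 alone there were 20 (28.4%) and 5 (28.9%), and with siRNA 4 alone 4 (16.2%) and 4 (19.4%). For 4OHT_siSMARCA4 minus 4OHT_siNT the main fit gave 3 (4.99%) and 0 (5.65%), and DESeq2 gave 5 higher (6.86%). Both other filters (2.53% and 4.33%) and both replicate blocks (0.638% and 1.49%) gave 0 higher, and the 2 groups alone 17 (13.3%). VM sets gave 8 higher (8.76%) and 1 lower (12.2%), and with the unlabelled library 15 (13.6%) and 3 (16.7%). With siRNA 2 alone there were 24 (11.8%) and 2 (13.9%), and with siRNA 4 alone, a fit that held DMSO_siNT 4-2V, 0 (0.0151%). For 4OHT_siSMARCA4 minus DMSO_siNT the main fit gave 11 (23.3%) and 3 (27.3%). Both replicate blocks (18.8% and 22.9%) and VM sets (23.5%) gave 1 lower. The 2 groups without DMSO_siNT 4-2V gave 22 (29.5%) and 1 (27.5%). With siRNA 2 alone there were 30 higher (29.9%), and with siRNA 4 alone 3 (14%) and 1 (17.2%). Deviations of libraries with the same set label correlated by -0.23 to 0.27, below 0 in 4 of 7 pairs and above 0.1 in the 3 pairs of set 3VM, so the labels were not taken to pair samples and the block is no paired analysis. Leaving out 1 library gave 9 to 14 higher and 4 to 11 lower, 0 to 14 higher, and 11 to 23 higher and 3 to 5 lower in the same order, the highest counts of higher members all coming without DMSO_siNT 4-2V. There 27.9%, 11.7% and 28.7% of all genes were called higher. PSMB6 in 4OHT_siSMARCA4 minus DMSO_siNT turned from -0.62 to 0.25 with siRNA 2 alone (adjusted p = 0.026). Within VM sets no ratio passed: PSMB8 to PSMB5 was -0.31, -0.62 and -0.93 in the 3 comparisons, PSMB9 to PSMB6 -1.003 and -1.22 in the first and last, and PSMB10 to PSMB7 -0.19, -0.49 and -0.67, with too few libraries for the threshold after adjustment. Leaving out 1 library moved the knockdown difference between -0.44 and -0.32 for PSMB8 to PSMB5 and between -0.35 and -0.22 for PSMB10 to PSMB7.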
